A study of Mus musculus with 12 samples.

Results

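The 8 members of the TRPM family of cation channels, Trpm1 to Trpm8, were followed in pancreatic islet RNA of 12 male mice. They were taken by gene symbol from a table of 24078 entries with an RPKM value for each animal, that is, read numbers divided by transcript length and by the mapped reads of the library. All 8 were listed and all 8 reached the minimum for testing, a mean over the 12 animals of 0.1 RPKM or more. Each genotype, WT, Wfs1HZ and Wfs1KO, had 4 animals and 1 library for each animal. All were F2 hybrids between C57BL/6 and another inbred strain, aged 5 to 6 months. WT animals carried no targeted allele, Wfs1HZ animals carried 1 copy and Wfs1KO animals 2 copies of Wfs1tm1Koks, an allele in which most of exon 8 of Wfs1 is replaced by a LacZ cassette in every tissue. The allele still gives a truncated WFS1 protein fused to LacZ, so that it is not a complete loss of the gene. Islets were freed with collagenase, picked by hand and kept overnight in a high glucose medium before the RNA was taken.

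TRPM channels are built from subunits that cross the membrane several times, assemble as tetramers and let cations into the cell. Trpm4 and Trpm5 open when calcium rises inside the cell and pass monovalent cations, which depolarizes the membrane, and both have been described in beta cells. Trpm2 is opened by ADP-ribose, Trpm3 by pregnenolone sulphate and heat, and Trpm8 by cold and menthol. Trpm6 and Trpm7 carry a protein kinase at their end and pass magnesium, and Trpm1 is the channel of the ON bipolar cells of the retina.

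Wfs1 was 24.85 to 33.94 RPKM in WT, 4.69 to 16.43 RPKM in Wfs1HZ and 2.45 to 6.61 RPKM in Wfs1KO islets, with means of 28.6, 11.1 and 4.4 RPKM. Every WT animal lay above every other animal, and Wfs1HZ and Wfs1KO animals overlapped. The overlap rested on Wfs1HZ replicate 2, at 4.69 RPKM. Wfs1HZ replicates 1, 3 and 4, at 15.03, 16.43 and 8.16 RPKM, lay above every Wfs1KO animal. The reads behind the RPKM values, estimated from the steps between values of short RNA genes, numbered 2195000 to 9567000 a library. Wfs1HZ replicate 2 had the fewest reads and stood apart. The mean RPKM of 1500 smell receptor entries (olfactory and vomeronasal receptors, most of which islets are not known to use) was 2.22 in that library and 0.1107 to 0.5023 in the other 11. Beta and alpha cell markers were abundant in all libraries, and acinar markers were too, with a summed level of 8216 to 301529 RPKM over 13 genes.

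Trpm5 lies on chromosome 7 at 143069153 to 143094642 on the minus strand (mm10, GENCODE M21, ENSMUSG00000009246.14), with 1 annotated transcript of 4123 nt that is linked to RefSeq. Its far end overlaps Tssc4, which is read from the other strand. Whether reads were counted by strand is not given in the sources used here, so reads from the overlap cannot be divided. The 250 bases before its RefSeq start site (GRCm38.p6, chr7:143094643-143094892, minus strand, 5′ to 3′) are shown because Trpm5 is the member on which the results turn. Capitals mark the letters TAAT, the core bound by homeodomain proteins such as Pdx1.

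Trpm5 promoter: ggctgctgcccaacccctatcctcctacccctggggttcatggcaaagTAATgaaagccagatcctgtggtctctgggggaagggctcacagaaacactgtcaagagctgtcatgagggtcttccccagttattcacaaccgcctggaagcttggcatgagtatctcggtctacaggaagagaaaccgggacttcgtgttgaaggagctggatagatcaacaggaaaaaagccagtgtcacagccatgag

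TAAT was found 1 time on either strand, with its first base 202 bases before the start, and 54.9% of 32851 promoter windows of the same length held it. TAAT was added to the search after the sequence had been read. TGACGTGG, an element bound by factors of endoplasmic reticulum stress and held by 0.563% of windows, had no match on either strand. The E-box CANNTG, held by 66.2% of windows, the octamer ATGCAAAT, by 1.6%, the TATA box TATAAA, by 12.4%, and the cyclic AMP element TGACGTCA, by 1.55%, had none either. The longer endoplasmic reticulum stress response elements are not reported here. A match or its absence describes these letters only.

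Trpm5 was the member that separated the genotypes. It was lower in all 4 Wfs1KO animals than in any WT or Wfs1HZ animal, while Wfs1HZ and WT animals overlapped. In WT animals 1 to 4 its level was 4.25, 2.57, 5.85 and 4.19 RPKM. In the Wfs1HZ animals it was 4.42, 3.83, 11.12 and 4.16 RPKM. In the Wfs1KO animals it was 0.76, 0.55, 0.73 and 0.83 RPKM. Wfs1KO animals lay close together, and Wfs1HZ replicate 3 lay far above the other 11 animals. At the annotated length these levels correspond to about 70.2 to 153 reads in WT, 34.7 to 337 reads in Wfs1HZ and 11.3 to 30 reads in Wfs1KO libraries.

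The mean level of Trpm5 was 0.718 ± 0.119 RPKM in Wfs1KO and 4.21 ± 1.34 RPKM in WT islets (SD, n = 4 each). The log2 fold change of Wfs1KO against WT was −2.36 (SE 0.34, 95% confidence interval −3.12 to −1.59, on log2(RPKM + 0.1)), a 5.12-fold lower level, and the FDR by limma was 0.188. It held place 7 by p-value among 21701 transcripts tested. The exact two-sided permutation test gave p = 0.0286, which is the smallest p that 4 against 4 animals can give. In bulk RNA, fewer cells that use Trpm5 and less Trpm5 RNA in each cell cannot be told apart. The study named Trpm5 from these same animals, so its direction here is not independent evidence. By edgeR it lists Trpm5 as lower in Wfs1KO than in WT and in Wfs1HZ islets, each at an FDR under 0.05. It also reports lower Trpm5 in Wfs1KO islets by RT-PCR. The fits here used limma on RPKM in place of edgeR, so their FDR values are not those of the study.

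Between Wfs1KO and WT 1 of the 8 members, Trpm5, passed an FDR under 0.2, where 0.0461% of all transcripts did. It was also the 1 of 8 with an unadjusted p under 0.05 (6.2e-05), where 5.64% of all transcripts had one, and the 1 of 8 whose animals did not overlap, where 2.74% of all transcripts did not. The call was near the threshold. It held without Wfs1KO replicate 4 (FDR 0.124) and was lost without each of WT replicates 1, 2, 3 and 4 and Wfs1KO replicates 1, 2 and 3 (FDR 0.294 to 0.616), with log2 fold changes of −2.18 to −2.57 over these fits. It was also lost with a pseudocount of 1, where the log2 fold change was −1.57 and the FDR 0.302, with median-of-ratios scaling (FDR 0.213) and with quantile normalization (FDR 0.239). A block for the replicate number likewise ended the call (FDR 0.925).

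Against Wfs1HZ islets, with a mean of 5.88 ± 3.5 RPKM (SD, n = 4), Trpm5 in Wfs1KO islets had a log2 fold change of −2.74 (SE 0.47, 95% confidence interval −3.78 to −1.70). The limma FDR was 0.796, and 0 of 8 members and 0% of all transcripts passed an FDR under 0.2 in this comparison. Trpm5 was the 1 of 8 members with an unadjusted p under 0.05 (0.000147), where 2.45% of all transcripts had one. Its animals did not overlap, nor did those of 1.43% of all transcripts, and the exact permutation test gave p = 0.0286. Without Wfs1HZ replicate 3, the animal with 11.12 RPKM, the log2 fold change was −2.38. Trpm5 passed an FDR under 0.2 under 3 of 12 alternatives and in 0 of 8 fits that left out an animal. When all 12 animals shared a fit, its limma FDR was 0.0811, and 2 of 21701 transcripts passed an FDR under 0.2. With sample weights its FDR was 0.0245 at a log2 fold change of −3.32. In that fit 42 of 21701 transcripts passed an FDR under 0.2 and 5 passed 0.05. Both comparisons use the same Wfs1KO animals.

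Between Wfs1HZ and WT islets Trpm5 had a log2 fold change of 0.38 (SE 0.41, 95% confidence interval −0.53 to 1.29, exact permutation p = 0.486). None of the 8 members passed an FDR under 0.2 by limma, 0 of 8 had an unadjusted p under 0.05, where 2.35% of all transcripts had one, and 0 of 8 had animals that did not overlap, where 1.66% of all transcripts did not. The percentage of all transcripts past an FDR under 0.2 was 0%. Wfs1 itself was lower in Wfs1HZ than in WT animals without overlap (log2 fold change −1.52, SE 0.37, FDR 1).

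**Figure D1:**
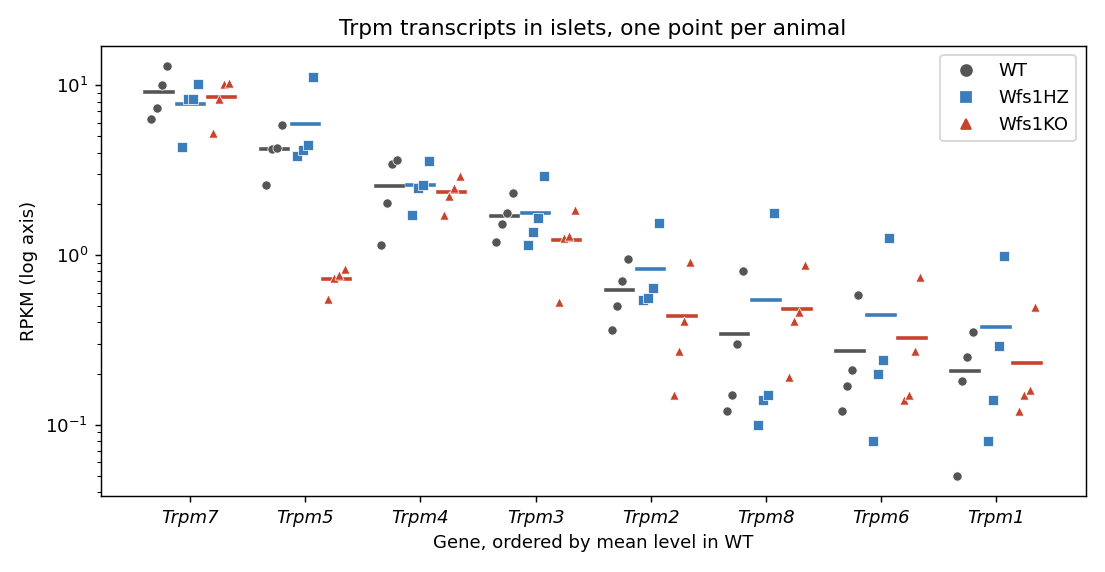
Level of each TRPM transcript in RPKM (log axis) in WT, Wfs1HZ and Wfs1KO islets, 1 point for each animal and a line at the arithmetic mean of the 4 animals. The Wfs1KO animals lie at 0.55 to 0.83 RPKM for Trpm5, below all other animals, and the genotypes overlap for the other 7 genes.

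Trpm4, the closest relative of Trpm5 in the family, showed no such separation. It was 3.61, 3.44, 2.01 and 1.14 RPKM in WT animals 1 to 4. It was 2.48, 1.71, 2.58 and 3.55 RPKM in Wfs1HZ animals and 2.23, 2.48, 1.72 and 2.92 RPKM in Wfs1KO animals. All 3 genotypes overlapped, and the means were 2.55 ± 1.18, 2.58 ± 0.754 and 2.34 ± 0.501 RPKM (SD, n = 4). The log2 fold change of Wfs1KO against WT was −0.01 with a 95% confidence interval of −0.92 to 0.89, so a change within that interval in either direction was not excluded in these animals.

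Within an animal, Trpm5 was above Trpm4 in 3 of 4 WT, 4 of 4 Wfs1HZ and 0 of 4 Wfs1KO animals. The difference of log2(RPKM + 0.1) between the genes was 0.78 ± 1.04 in WT, 1.05 ± 0.77 in Wfs1HZ and −1.56 ± 0.37 in Wfs1KO islets (mean ± SD, n = 4). Wfs1KO animals lay 2.34 below WT and 2.62 below Wfs1HZ animals on this log2 scale, without overlap (exact two-sided permutation test, p = 0.0286 for both, the smallest possible). Without each of the Wfs1KO replicates 1, 2, 3 and 4 in turn, the exact permutation p against WT was 0.0571. The animals still did not overlap, and the differences were −2.20 to −2.49. The smallest p that 3 against 4 animals can give is 0.029. Wfs1HZ and WT animals differed by 0.28 (p = 0.743, exact permutation test).

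Markers of beta cells had mostly negative log2 fold changes in Wfs1KO islets. Of 10 markers listed, 9 were tested against WT, and 0 passed an FDR under 0.2 by limma. An unadjusted p under 0.05 was held by 2, where 5.64% of all transcripts had one. Of the 9 markers, 7 had a negative and 2 a positive log2 fold change. Their median log2 fold change was −0.75, against 0.07 over all transcripts tested. Their summed level was 22394 to 91427 RPKM in Wfs1KO and 32086 to 179874 RPKM in WT animals, and Mafa, a defining factor of mature beta cells, was listed at 0 in every WT animal. The 2 with an unadjusted p under 0.05 were Slc30a8, the zinc transporter of insulin granules, at 63.1 ± 17.6 RPKM in WT and 25.2 ± 19.2 RPKM in Wfs1KO, and Slc2a2, the glucose transporter, at 7.73 ± 3.41 and 3.5 ± 0.875 RPKM (SD, n = 4). Of the 2 with a positive log2 fold change, the beta cell factor Nkx6-1 was 10.1 ± 4.37 RPKM in WT and 16 ± 9.43 RPKM in Wfs1KO (0.55, limma FDR 0.934), and the factor Pdx1 was 9.63 ± 3 and 12.5 ± 7.31 RPKM (0.23, FDR 0.973). All 4 were singled out after their values were seen.

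Relative to the mean of the 10 beta cell markers in the same animal, Trpm5 was still lower in all Wfs1KO animals. The log2 difference was −4.65 ± 0.48 in WT, −4.11 ± 0.60 in Wfs1HZ and −6.52 ± 0.51 in Wfs1KO islets (mean ± SD, n = 4). Wfs1KO animals lay 1.87 below WT and 2.41 below Wfs1HZ animals, again without overlap (exact two-sided permutation test, p = 0.0286 for both). With Ins1, Ins2 and Iapp left out of the markers the differences were −1.92 and −2.27.

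**Figure D2:**
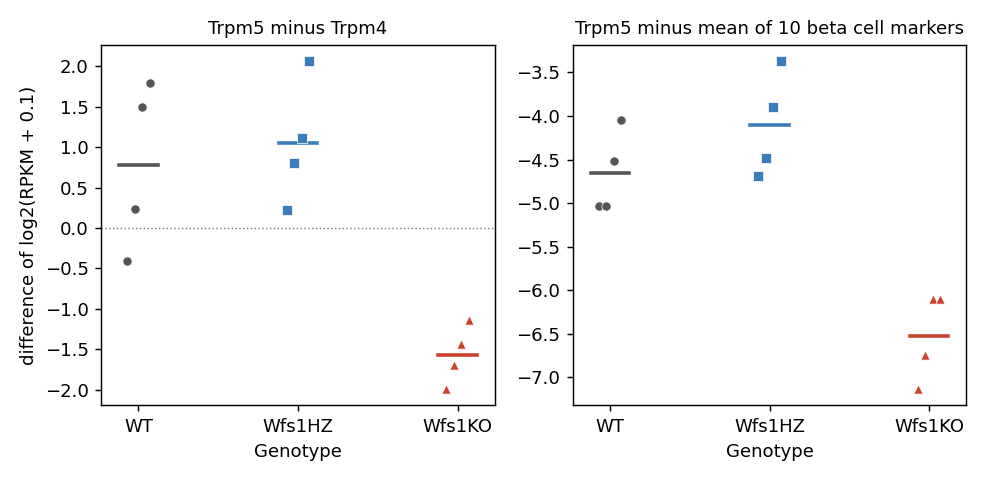
Difference of log2(RPKM + 0.1) within each animal between Trpm5 and Trpm4 (left) and between Trpm5 and the mean of 10 beta cell markers (right), 1 point for each animal and a line at the mean. On the left the Wfs1KO animals lie at −1.99 to −1.13 and the WT animals at −0.41 to 1.79.

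Markers of other cell types also differed in direction. All 6 endothelial markers and 5 of 6 stromal markers had a positive log2 fold change in Wfs1KO against WT islets, with medians of 0.71 and 1.17. Of these 12, 0 passed an FDR under 0.2 by limma. An unadjusted p under 0.05 was held by 1 of each list, where 5.64% of all transcripts had one. In Wfs1HZ against WT, where Trpm5 was not lower, all 6 of each list were positive, with medians of 0.71 and 0.85. In Wfs1KO against Wfs1HZ the medians were 0.09 and 0.14. The summed levels in Wfs1KO and WT were 73.6 to 91.1 and 26.4 to 81 RPKM for endothelial markers, and 76.6 to 187 and 27.8 to 99.6 RPKM for stromal markers. All 6 alpha cell markers had a negative log2 fold change, with a median of −0.31 and summed levels of 50977 to 221068 RPKM in Wfs1KO and 60853 to 185760 RPKM in WT. The part of these cell types in the level of Trpm5 was not tested.

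Trpm7, a channel with a kinase that is used by most cells for magnesium entry, was the most abundant member. It was 12.89, 10.03, 7.36 and 6.3 RPKM in WT animals 1 to 4. It was 8.23, 10.22, 8.26 and 4.3 RPKM in Wfs1HZ animals and 10.32, 10.09, 5.22 and 8.26 RPKM in Wfs1KO animals. The genotypes overlapped throughout, and the log2 fold change was −0.10 (SE 0.30, 95% confidence interval −0.78 to 0.57) for Wfs1KO against WT. It held 30% to 65.7% of the summed RPKM of the 8 members in the 12 animals. Trpm5 held 13.8% to 30.7% of that sum in WT, 15.8% to 45.9% in Wfs1HZ and 3.58% to 8.14% in Wfs1KO animals.

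Trpm6, the other channel with a kinase, is known from the gut and kidney, where it takes up magnesium. Its mean was 0.27 ± 0.21 RPKM in WT, 0.445 ± 0.548 RPKM in Wfs1HZ and 0.325 ± 0.283 RPKM in Wfs1KO islets (SD, n = 4). Of 15 other genes of magnesium handling, 0 passed an FDR under 0.2 in any comparison by limma, and with sample weights 1 passed for Wfs1KO against Wfs1HZ. For Wfs1KO against WT the median log2 fold change was −0.19. An unadjusted p under 0.05 was held by 2, Cnnm1 and Magt1, where 5.64% of all transcripts had one. Cnnm1, named after its values were seen, was 3.52 ± 2.21 RPKM in WT, 2.01 ± 0.464 RPKM in Wfs1HZ and 1.03 ± 0.337 RPKM in Wfs1KO islets. Its log2 fold change against WT was −1.51 (limma FDR 0.835), and the study lists it as lower in Wfs1KO at an FDR under 0.05. The most abundant of the 15 were Magt1, a subunit of the oligosaccharyltransferase that is also tied to magnesium, Tusc3, its paralogue, and the transporters Slc41a1 and Slc41a2. Magt1 was 41.5 ± 9.92 RPKM in WT, 29.2 ± 9.47 RPKM in Wfs1HZ and 65.4 ± 16.7 RPKM in Wfs1KO islets, with log2 fold changes of 0.65 against WT and 1.19 against Wfs1HZ that did not pass (FDR 0.835 and 1). Tusc3 was 26.2 ± 8.39, 21.5 ± 7.86 and 31.6 ± 8.44 RPKM in the same order.

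Trpm3, a channel of beta cells that steroid sulphates open, was 1.76, 1.53, 2.32 and 1.19 RPKM in WT animals 1 to 4. It was 1.66, 2.91, 1.36 and 1.14 RPKM in Wfs1HZ animals and 1.29, 1.25, 0.53 and 1.83 RPKM in Wfs1KO animals. The mean was lowest in Wfs1KO, and the groups overlapped (log2 fold change against WT −0.51, SE 0.43, FDR 0.927). Its annotated transcripts run from 1450 to 12305 nt, and the length behind its RPKM is not given in the sources used here, so its place among the members depends on that length. Mir204 lies inside the span of Trpm3 and Mir211 inside that of Trpm1, and each was listed at 0 in 10 of 12 libraries and at about 1 read in the other 2.

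Trpm2, which ADP-ribose opens, was 0.7, 0.5, 0.94 and 0.36 RPKM in WT animals 1 to 4. It was 0.64, 1.55, 0.56 and 0.54 RPKM in Wfs1HZ animals and 0.41, 0.27, 0.15 and 0.91 RPKM in Wfs1KO animals. Wfs1KO replicates 2 and 3 lay below every WT animal and the other Wfs1KO animals within the WT range (log2 fold change −0.57, SE 0.54, FDR 0.934). Against Wfs1HZ the log2 fold change was −0.86 (SE 0.68, FDR 1). Of 9 genes that make or break down ADP-ribose, 0 passed an FDR under 0.2 by limma and 0 had an unadjusted p under 0.05 in any comparison. The most abundant of them were Parp2 and Parp1, which build poly(ADP-ribose), at 21.8 ± 4.51 and 14 ± 2.04 RPKM in WT and 20.9 ± 6.44 and 14.8 ± 3.59 RPKM in Wfs1KO islets. Nudt9, which breaks ADP-ribose down, was 12.2 ± 4.75 and 13 ± 4.86 RPKM, and Parg, which frees ADP-ribose from its polymer, 10.6 ± 2.54 and 11.7 ± 2.41 RPKM.

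Trpm1, Trpm6 and Trpm8 lay at about the level of the smell receptor genes of the same library. Trpm1 was 0.05 to 0.35 RPKM in WT, 0.08 to 0.99 RPKM in Wfs1HZ and 0.12 to 0.49 RPKM in Wfs1KO islets. Trpm8, the cold receptor, was 0.12 to 0.8, 0.1 to 1.77 and 0.19 to 0.87 RPKM in the same order. Divided by the mean of the smell receptor genes in its own library, the median over 12 libraries was 0.549 for Trpm1, 1.05 for Trpm6 and 1.01 for Trpm8. It was 2 for Trpm2, 5 for Trpm3, 9.17 for Trpm4, 12.4 for Trpm5 and 32.9 for Trpm7. In Wfs1KO libraries Trpm5 itself lay at 1.65 to 3.13 times the smell receptor level, against 7.89 to 37.9 times in WT libraries. Wfs1HZ libraries lay at 27.8, 1.73, 43.4 and 35.5 times in replicates 1 to 4, so that replicate 2 fell within the Wfs1KO range and these 2 genotypes overlapped on this measure.

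Wfs1HZ replicate 2, the library with the high smell receptor level, held the highest value of 5 of the 8 members, Trpm1, Trpm2, Trpm3, Trpm6 and Trpm8. Its values were 0.99, 1.55, 2.91, 1.26 and 1.77 RPKM. The values of Trpm4, Trpm5 and Trpm7 in this library lay within the range of the other 11. Without it the log2 fold change of Wfs1HZ against WT was −0.15 for Trpm1, −0.03 for Trpm2, −0.25 for Trpm3, −0.34 for Trpm6 and −0.71 for Trpm8, and with it the values were 0.37, 0.29, 0.00, 0.25 and 0.05. None of these passed an FDR under 0.2.

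**Figure D3:**
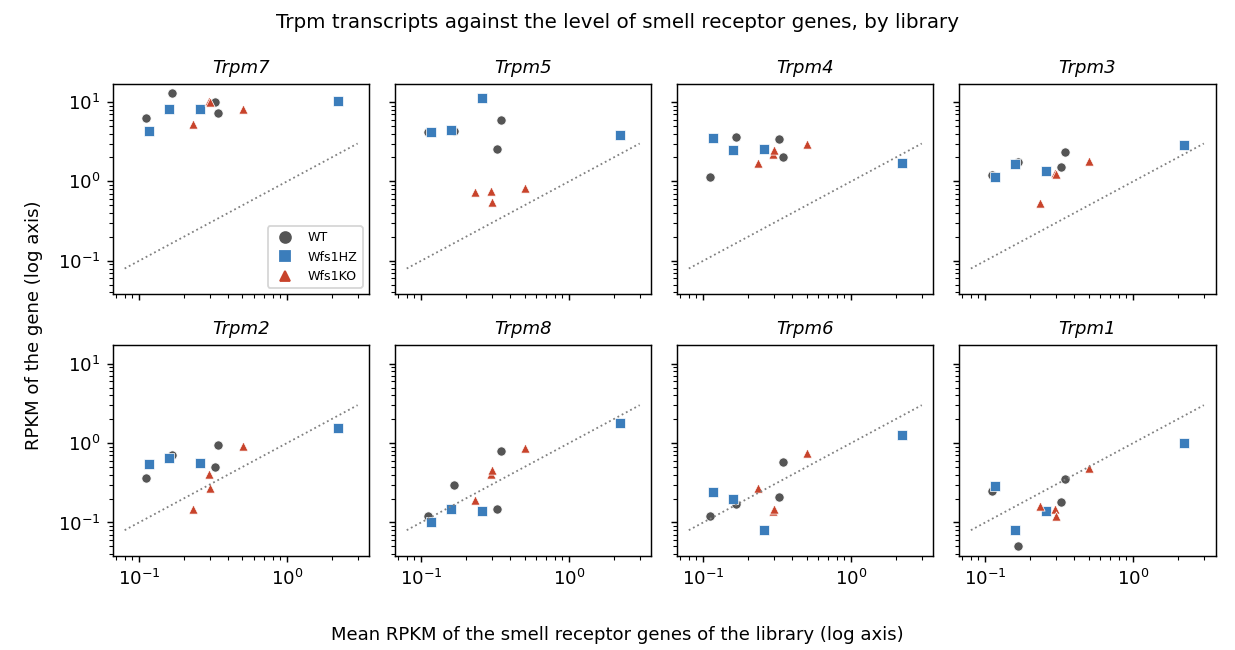
Level of each TRPM transcript against the mean level of 1500 smell receptor entries in the same library (RPKM, log axes), 1 point for each of 12 libraries and a dotted line where they are equal. Trpm1, Trpm6 and Trpm8 scatter about the line, Trpm7 lies at least 4.6 times above it, and Trpm5 in Wfs1KO lies 1.65 to 3.13 times above it.

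The order of the mean levels in WT islets was Trpm7, Trpm5, Trpm4, Trpm3, Trpm2, Trpm8, Trpm6 and Trpm1. Between neighbours in this order the animals overlapped except for Trpm7 over Trpm5 and Trpm3 over Trpm2. With 4 animals the exact sign-flip test of the within-animal difference cannot go below p = 0.13, so no step could pass in WT alone. In the Wfs1KO animals the order was Trpm7, Trpm4, Trpm3, Trpm5, Trpm8, Trpm2, Trpm6 and Trpm1, with Trpm5 at place 4 in place of 2. In Wfs1HZ the order was the same as in WT.

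Over all 12 animals the exact sign-flip permutation test set the mean within-animal step against no difference. Its p was under 0.05 for the step from Trpm7 to Trpm5 (exact p = 0.00244, higher in 11 of 12 animals). It was also under 0.05 for the step from Trpm4 to Trpm3 (exact p = 0.0107, 9 of 12). The same held from Trpm3 to Trpm2 (exact p = 0.000488, 12 of 12, the smallest p possible). It held too from Trpm2 to Trpm8 (exact p = 0.0254, 8 of 12). It did not hold for the step from Trpm5 to Trpm4 (exact p = 0.828, 7 of 12). Nor did it from Trpm8 to Trpm6 (exact p = 0.222, 7 of 12) or from Trpm6 to Trpm1 (p = 0.15, 8 of 12). The steps that involve Trpm5 pool genotypes that differ in it. Trpm5 lay above Trpm4 in 3 of 4 WT, 4 of 4 Wfs1HZ and 0 of 4 Wfs1KO animals, so the pooled value for that step joins opposite directions. Trpm7 lay above Trpm5 in 4 of 4 WT and 3 of 4 Wfs1HZ animals. The step from Trpm2 to Trpm8 also pools a reversed order, with means of 0.435 and 0.483 RPKM in Wfs1KO islets. Trpm2 lay above Trpm8 in 4 of 4 WT and 3 of 4 Wfs1HZ animals. In Wfs1KO, Trpm8 lay above Trpm2 in 2 of 4 animals. These are comparisons of RPKM, a level per length, and 7 steps were tested without adjustment.

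The other 7 members had log2 fold changes of −0.57 to 0.51 for Wfs1KO against WT, 4 of them negative and 3 positive, with a lowest FDR of 0.927 by limma. For Wfs1KO against Wfs1HZ they ran from −0.86 to 0.46 and for Wfs1HZ against WT from −0.25 to 0.37, with an FDR of 1 for all. The lowest exact permutation p among them was 0.286, 0.2 and 0.543 in the same order. The intervals were wide for members with low levels. For Trpm8 the 95% confidence interval of the log2 fold change against WT ran from −0.83 to 1.84.

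**Figure D4:**
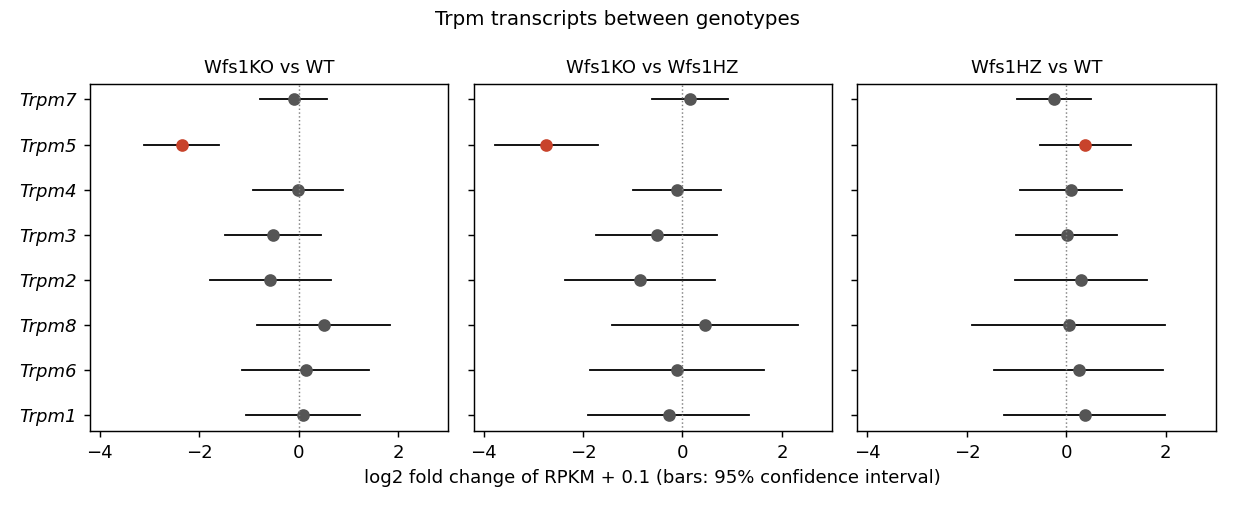
Log2 fold change of each TRPM transcript, on log2(RPKM + 0.1), for the 3 pairs of genotypes, with bars for the 95% confidence interval of the limma fit. In both comparisons with Wfs1KO the interval of Trpm5 lies below 0, and those of the other 7 genes include 0.

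Of the genes that act before Trpm5 in taste cells, none was called. Of 10 such genes listed, 8 were tested, 0 passed an FDR under 0.2 by limma, and 0 had an unadjusted p under 0.05 in any of the 3 comparisons. For Wfs1KO against WT 7 had a positive and 1 a negative log2 fold change, with a median of 0.14. Gnb1, a subunit of many G proteins, was 159 ± 40.0 RPKM in WT and 152 ± 18.3 RPKM in Wfs1KO. Itpr3, the receptor that releases calcium from the endoplasmic reticulum in taste cells, was 5.62 ± 1.22 and 5.99 ± 1.45 RPKM. Tas1r3, a shared subunit of the sweet and umami receptors that is also known in beta cells, was 1.3 ± 0.579 and 1.54 ± 1.26 RPKM. Gnat3, the taste G protein gustducin, was 0.287 ± 0.249 and 0.332 ± 0.302 RPKM, and Plcb2, the phospholipase of taste cells, was 0.16 ± 0.103 and 0.255 ± 0.274 RPKM, both near the smell receptor level.

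Trpm5 is also a marker of tuft cells, chemosensory cells of epithelia that include the pancreatic duct. Of 9 other tuft cell markers listed, 7 were tested, 0 passed an FDR under 0.2 by limma and 0 had an unadjusted p under 0.05, with a median log2 fold change of 0.22 for Wfs1KO against WT. Their summed level was 5.84 to 10.2 RPKM in WT, 2.91 to 14.3 RPKM in Wfs1HZ and 7.15 to 12.6 RPKM in Wfs1KO. Pou2f3, the factor that defines tuft cells, was 0.253 ± 0.131, 0.305 ± 0.288 and 0.3 ± 0.102 RPKM. The most abundant were Ptgs1, a prostaglandin synthase, at 2.79 ± 1.35 RPKM in WT and 5.12 ± 2.9 RPKM in Wfs1KO, and Dclk1, a kinase, at 2.05 ± 0.359 and 1.92 ± 0.626 RPKM. Avil, an actin-binding protein, was 0.763 ± 0.286 and 1.61 ± 0.851 RPKM, and Alox5, a lipoxygenase, 0.622 ± 0.387 and 0.537 ± 0.24 RPKM.

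Channels of beta cell excitation, among which Trpm5 works, were measured at higher levels. Of 17 tested, 0 passed an FDR under 0.2 by limma for Wfs1KO against WT. An unadjusted p under 0.05 was held by 3, where 5.64% of all transcripts had one. The median log2 fold change was −0.40, with 14 negative and 3 positive values, against 0.07 over all transcripts tested. For Wfs1HZ against WT, where Trpm5 was at 0.38, the median was −0.39, with 15 negative and 2 positive values and 0 with an unadjusted p under 0.05. Abcc8, the sulphonylurea receptor of the ATP-sensitive potassium channel, was 58.1 ± 11.7 RPKM in WT, 37.2 ± 17.3 RPKM in Wfs1HZ and 40.6 ± 11.9 RPKM in Wfs1KO islets. Kcnk16, a potassium channel subunit, was 35.2 ± 11.2, 24.7 ± 13.1 and 26.9 ± 14.1 RPKM in the same order. The calcium channel subunits Cacna2d1 and Cacnb3 were 18.6 ± 4.42 and 17.5 ± 2.73 RPKM in WT and 21 ± 6.77 and 15.5 ± 3.98 RPKM in Wfs1KO.

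The list of incretin, muscarinic and phospholipase C signalling, which can raise the activity of Trpm4 and Trpm5, held 18 genes. Of these, 0 passed an FDR under 0.2 by limma for Wfs1KO against WT. An unadjusted p under 0.05 was held by 2, where 5.64% of all transcripts had one. The median log2 fold change of the 18 was −0.19, against 0.07 over all transcripts tested. Glp1r, the GLP-1 receptor, was 63.4 ± 22.9 RPKM in WT, 59.2 ± 37.8 RPKM in Wfs1HZ and 41.3 ± 13.8 RPKM in Wfs1KO islets. Gnas, the stimulatory G protein subunit, was 348 ± 47.4 RPKM in WT and 303 ± 73.3 RPKM in Wfs1KO. Prkaca, the catalytic subunit of protein kinase A, was 31.5 ± 5.36 and 33.5 ± 8.71 RPKM, and Gnaq, the G protein subunit that acts on phospholipase C, 30.3 ± 7.72 and 28.2 ± 6.07 RPKM.

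The 20 TRP channels outside the family likewise gave 0 calls at an FDR under 0.2 by limma for Wfs1KO against WT. An unadjusted p under 0.05 was held by 1 of them, where 5.64% of all transcripts had one. The log2 fold changes of the 20 were evenly split, 10 positive and 10 negative, with a median of 0.12. Pkd2, or polycystin-2, was the most abundant at 18.1 ± 2.94 RPKM in WT and 21.6 ± 4.92 RPKM in Wfs1KO. Mcoln1, a lysosomal channel, was 9.57 ± 4.81 and 10.9 ± 2.09 RPKM, Trpc1 9.15 ± 1.69 and 7.25 ± 2.54 RPKM and Pkd2l2 5.69 ± 1.73 and 3.97 ± 1.05 RPKM. At these levels Trpm7 stood among the more abundant TRP channels of the islet, and Trpm5 in WT lay below Trpc1 and Pkd2l2 in mean RPKM.

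Genes near Trpm5 on chromosome 7 had mostly positive log2 fold changes in Wfs1KO islets. Of 8 genes whose start lay within 250 kb of that of Trpm5, 7 were tested against WT, 5 with a positive and 2 with a negative log2 fold change. Their median was 0.65, against 0.07 over all transcripts tested, and 0 passed an FDR under 0.2 by limma. An unadjusted p under 0.05 was held by 2, Cd81 and Tspan32. Of all transcripts 5.64% had one, 848 of them higher and 377 lower in Wfs1KO. Tspan32, named after its values were seen, was low in both genotypes, at 0.0375 ± 0.045 RPKM in WT and 0.525 ± 0.434 RPKM in Wfs1KO. Tssc4, which overlaps the end of Trpm5, was 5.52 ± 1.73 RPKM in WT and 8.74 ± 2.54 RPKM in Wfs1KO. Cd81, a tetraspanin, was 171 ± 47.5 and 268 ± 40.8 RPKM. Kcnq1, a potassium channel with its start 11.7 kb from that of Trpm5, was 0.882 ± 0.392 and 1.65 ± 0.861 RPKM, and its antisense RNA Kcnq1ot1 5.13 ± 1.14 and 5.01 ± 1.93 RPKM. Th, tyrosine hydroxylase, was 4.32 ± 1.18 and 3.63 ± 1.09 RPKM, and R74862 2.82 ± 1.49 and 3.28 ± 0.337 RPKM.

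The transcripts whose pattern over the 12 animals was nearest to that of Trpm5 were Kcnj12, Gad1, Spock1, Insrr and Cntnap2, out of 13355 with a mean of at least 1 RPKM. Nearness was the root mean square difference of the log2(RPKM + 0.1) values after each transcript was centred on its own mean, and it was 0.513, 0.593, 0.671, 0.701 and 0.71 in this order. Since they were chosen for this pattern, their levels are given without a test. Kcnj12, an inward rectifier potassium channel, was 1.13 ± 0.363 RPKM in WT, 1.71 ± 0.565 RPKM in Wfs1HZ and 0.268 ± 0.202 RPKM in Wfs1KO islets. In Wfs1KO replicates 1, 2 and 4 it was 0.21, 0.07 and 0.24 RPKM, below the smell receptor means of 0.2962, 0.2997 and 0.5023 RPKM. In replicate 3 it lay above that mean (0.55 against 0.2332 RPKM). Gad1, which makes the transmitter GABA, was 6.36 ± 3.01, 6.02 ± 3.16 and 0.907 ± 0.479 RPKM in WT, Wfs1HZ and Wfs1KO islets. Spock1, a proteoglycan of the testican family, was 17.3 ± 3.84, 14.9 ± 5.71 and 5.47 ± 1.36 RPKM.

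Insrr, a receptor related to the insulin receptor, was 7.47 ± 3.24, 10.3 ± 8.15 and 2.9 ± 1.25 RPKM. Cntnap2, an adhesion protein of the neurexin superfamily, was 4.89 ± 1.69, 4.79 ± 2.08 and 1.85 ± 0.453 RPKM. Wfs1HZ replicate 3, the animal with the highest Trpm5, was also the highest Wfs1HZ animal for all 5, with 2.41, 10.2, 22.2, 21.8 and 7.82 RPKM in the order above. Without that animal 3 of the 5 stayed among the nearest 5, Kcnj12, Gad1 and Spock1, and Dpyd and Spc25 took the other places.

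**Figure D5:**
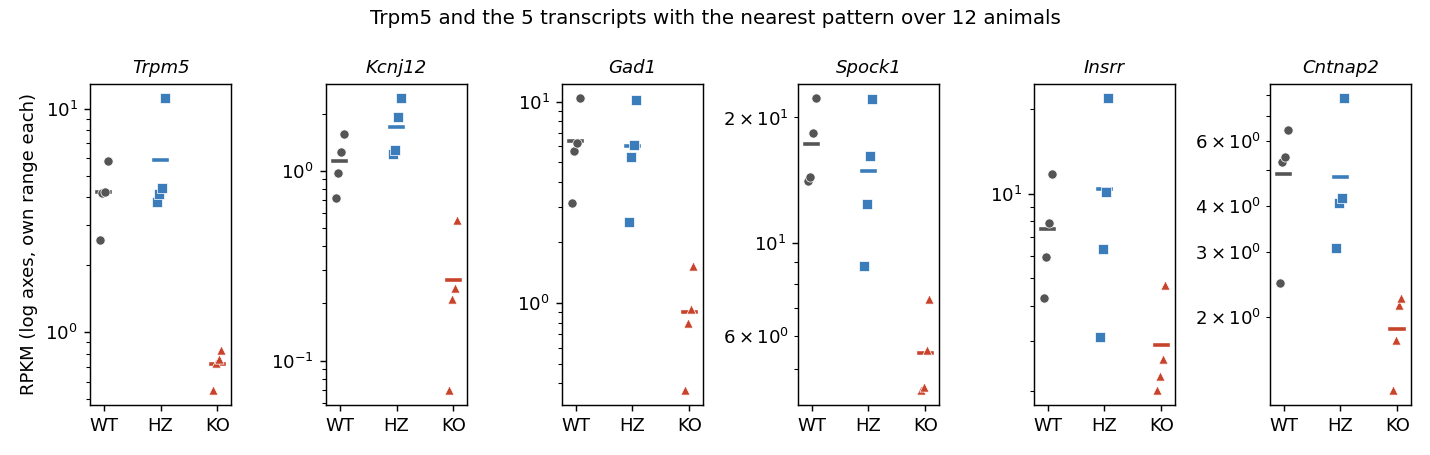
Level of Trpm5 and of the 5 transcripts with the nearest pattern in WT, Wfs1HZ (HZ) and Wfs1KO (KO) islets in RPKM, on log axes with their own range, 1 point for each animal and a line at the arithmetic mean. The Wfs1KO animals lie below all others for Trpm5, Kcnj12, Gad1, Spock1 and Cntnap2, and for Insrr they overlap with the other genotypes.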

How the data were processed

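Islet RNA of 4 WT, 4 Wfs1HZ and 4 Wfs1KO mice was measured. Genotypes and replicate numbers were taken from the sample labels. The authors made cDNA from 10 ng of total RNA, sequenced it with 75 bp forward and 35 bp reverse reads, used LifeScope to map them to mm10 and deposited RPKM values with no log transformation. The tool and annotation behind the RPKM values are not given in the sources used here. The p-values measure the spread between animals, with 1 library each.

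The RPKM were used as log2(RPKM + 0.1) without further scaling. Fold changes on this scale understate changes of low transcripts. Each pair of genotypes was fitted alone over the 21701 transcripts whose mean over all samples was 0.1 RPKM or more, by limma 3.58.1 (R 4.3.3) with a variance trend and Benjamini-Hochberg adjustment (FDR). Thresholds were 0.2 and, more strictly, 0.05, which no TRPM member passed in these fits (Trpm5 passed it in Wfs1KO against Wfs1HZ with sample weights, FDR 0.0245). Exact permutation and sign-flip tests were run in Python 3.11.15 (numpy 2.4.6, pandas 2.3.3), and figures drawn with matplotlib 3.10.9. The procedure was tested on simulated data.

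Depth was estimated from 724 short RNA genes under 200 nt, within a tolerance of 0.05 reads, and approximate reads are RPKM times GENCODE M21 length times depth. At these depths 3 reads on 2 kb correspond to 0.157 to 0.683 RPKM (counting error only). Positions are from GENCODE M21, and promoter sequences from RefSeq (GRCm38.p6), which held 7 of the 8 members.

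Members, gene lists and markers were chosen with earlier results of these data known. Genes named are the 8 members, Wfs1, the 5 transcripts nearest to Trpm5, up to 4 most abundant genes of each list, all neighbours within 250 kb with a mean of at least 1 RPKM, Mir204 and Mir211, and Plcb2, Pou2f3, Mafa, Slc30a8, Slc2a2, Nkx6-1, Pdx1, Cnnm1, Tspan32, Dpyd and Spc25, which were added after their values were seen. Alternatives tried were pseudocounts of 1 and 0.01, no filter or a mean of at least 1 RPKM, median-of-ratios scaling, quantile normalization, no variance trend, robust moderation, sample weights, a joint fit of all 12 samples, a block for the replicate number, each animal left out, and, chosen after seeing the data, the 3 libraries with the fewest reads left out.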

Additional observations from a re-analysis of the deposited data

Results flagged for a closer look

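Within each group of 4 animals, a library was picked out where its gap to the nearest other, as a share of the range, was over Dixon's 95% criterion. Of 27 groups examined, the 8 members and the smell receptor level in 3 genotypes, 6 had such a library. The criterion is set for about 1 in 20 with independent, normally distributed values. These were untransformed RPKM and 4 of the 6 came from the same library, so that rate cannot be set against the count. Trpm5 was 11.12 RPKM in Wfs1HZ replicate 3, with the other Wfs1HZ animals at 3.83 to 4.42 RPKM. Wfs1HZ replicate 2 was picked out 4 times, for Trpm2 at 1.55 RPKM, Trpm6 at 1.26 RPKM, Trpm8 at 1.77 RPKM and the mean of the smell receptor genes at 2.22 RPKM. Trpm1 was 0.49 RPKM in Wfs1KO replicate 4, the Wfs1KO library with the fewest reads. What set these libraries apart was not tested.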

How the results depend on the processing

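In Wfs1KO against WT the log2 fold change of Trpm5 stayed negative in all fits tried, from −1.57 to −2.57. It passed an FDR under 0.2 under 8 of 12 alternatives and in 1 of 8 fits that left out an animal (−2.18 to −2.57). The call, and with it the count of members past the threshold (0 in place of 1), was lost with a pseudocount of 1 (−1.57), median-of-ratios scaling (−2.38), quantile normalization (−2.40) and the replicate block (−2.36). The count was 0 or 1 when an animal was left out. In Wfs1KO against Wfs1HZ, Trpm5 passed, and the count was 1 in place of 0, with robust moderation (−2.74), all 12 samples in a single fit (−2.74) and sample weights (−3.32). The cause of these shifts was not tested. The Trpm5 to Trpm4 difference of Wfs1KO from WT ran from −2.74 to −2.004 with an animal left out. Its exact permutation p was 0.0571 without each of the Wfs1KO animals, with those left still below all WT animals. The difference of Wfs1HZ from WT ran from −0.12 to 0.61. All 42 alternatives of the ratios kept Wfs1KO below the other genotype.

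The sample labels do not say whether the replicate numbers pair the animals, and correlations cannot decide it. Deviations of animals with the same number correlated at −0.13 to 0.06 between Wfs1KO and WT, −0.17 to 0.09 between Wfs1KO and Wfs1HZ and −0.05 to 0.23 between Wfs1HZ and WT. With the replicate block 0 transcripts passed an FDR under 0.2 in each comparison, against 10, 0 and 0 without it, and the FDR of Trpm5 was 0.925 for Wfs1KO against WT. The count of 10 also ran from 1 with a pseudocount of 1 to 108 without the 3 libraries with the fewest reads (WT replicate 3, Wfs1HZ replicate 2 and Wfs1KO replicate 4, an alternative chosen after seeing the data), where Trpm5 stood at −2.25 and an FDR of 0.179.

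The other 7 members never passed an FDR under 0.2 in 408 fitted values, and 50 of these had the opposite sign, given here by value or, for animals left out, by range. For Wfs1KO against WT, Trpm1 was −0.20 with quantile normalization, −0.0168 with sample weights and −0.0133 without the 3 libraries, and Trpm6 was −0.15 with both quantile normalization and sample weights. With an animal left out Trpm1 ran from −0.23 to 0.31, Trpm4 from −0.34 to 0.19, Trpm6 from −0.25 to 0.48 and Trpm7 from −0.26 to 0.11. For Wfs1KO against Wfs1HZ, Trpm1 was 0.0677 and Trpm6 0.29 with sample weights, Trpm6 was 0.0913 without the 3 libraries and Trpm4 was 0.19 with quantile normalization. With an animal left out Trpm1 ran from −0.62 to 0.24, Trpm4 from −0.29 to 0.0463, Trpm6 from −0.50 to 0.49 and Trpm7 from −0.11 to 0.36. For Wfs1HZ against WT, quantile normalization gave −0.0530 for Trpm2, −0.23 for Trpm3, −0.25 for Trpm4, −0.0349 for Trpm6 and −0.19 for Trpm8. Sample weights gave −0.0872 for Trpm1, −0.15 for Trpm3, −0.43 for Trpm6 and −0.43 for Trpm8. Leaving out the 3 libraries gave −0.10 for Trpm3, −0.0014 for Trpm6 and −0.29 for Trpm8, and a pseudocount of 0.01 gave −0.0381 for Trpm8. With an animal left out Trpm1 ran from −0.15 to 0.71, Trpm2 from −0.0286 to 0.49, Trpm3 from −0.25 to 0.17, Trpm4 from −0.22 to 0.31, Trpm6 from −0.34 to 0.63, Trpm7 from −0.41 to 0.0088 and Trpm8 from −0.71 to 0.47. At the depth of these libraries the levels of Trpm1, Trpm6 and Trpm8 rest on about 2.08 to 18 reads, and differences of that order were not detectable.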
